A study of Homo sapiens with 30 samples.

Results

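Human small airway epithelial (SAE) cells exposed to multi-walled carbon nanotubes (MWCNT) at 100 ug/ml for 24 h were compared with the same cells exposed to titanium dioxide nanobelts (TiO2-NB, here TiO2) at 100 ug/ml for 24 h, across 11963 genes. The members were the 6 arrays whose labels name these particles, this dose and this time, 3 with MWCNT and 3 with TiO2, of 30 arrays in all. The whole series covers 10 groups of 3 arrays, with either particle at 10 or 100 ug/ml, or no particle, for 1 or 24 h. All groups share the same purchased primary SAE cells, plated as adherent cultures in one growth medium, with particles added straight to that medium. The 3 unexposed cultures of 24 h are used here only as a level to set the values beside. The labels call the 3 arrays of a group biological replicates and do not say whether they came from different donors. A p-value here sets a difference against the spread between cultures within groups, estimated over all 10 groups. It may not carry over to other donors. Doses are matched by mass per volume, which leaves particle number and surface unmatched as far as the labels tell, and composition and shape differ together. The arrays measured bulk RNA, in which fewer cells of a type and less RNA per cell cannot be told apart.

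Small airway epithelium lines the distal airways, where inhaled fibres and particles settle. Epithelial cells answer particles and their surface chemistry through several known routes. Growth factor and stress signals run through the kinase ERK, which switches on immediate early transcription factors and then its own brakes, the dual-specificity phosphatases (DUSP), Sprouty (SPRY) and SPRED proteins. The aryl hydrocarbon receptor (AhR) is a ligand-activated transcription factor that induces cytochrome P450 genes. Metallothioneins are small cysteine-rich proteins that bind zinc and copper and are induced by free metal through the factor MTF1. Amino acid shortage and unfolded proteins raise the factor ATF4 and its targets, and interferon raises a set of antiviral genes.

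The values were log2 expression levels from short-oligonucleotide arrays, so a difference of 1 is a doubling. Marker genes bore out an epithelial culture only in part. Of 11 measured small airway epithelial markers, 7 had a mean over all arrays above the median of the whole table (7.18), among them KRT8, KRT18, DSP, ITGA6, ITGB4 and CDH1. KRT14, KRT19, CLDN1 and EPCAM lay below it. Markers of several other cell types were mostly dim. Above that median stood 1 of 9 immune markers, 3 of 10 fibroblast markers, 1 of 8 endothelial markers and 1 of 6 ciliated cell markers. Alveolar cell markers were not mostly dim, with 5 of 9 above it. The mean level over the immune markers ranged over 5.22 to 5.26 on the MWCNT arrays, 5.36 to 5.48 on the TiO2 arrays and 5.27 to 5.36 on the unexposed arrays, and the leukocyte gene PTPRC was near the bottom of the scale in both particle groups (3.44 with MWCNT and 3.56 with TiO2). Over the fibroblast markers it ranged over 5.61 to 5.70 with MWCNT, 5.69 to 5.76 with TiO2 and 5.63 to 5.67 in unexposed cultures. Arrays of one particle correlated more closely with each other than with the other particle: Pearson's r across genes was 0.9985 to 0.9989 within MWCNT, 0.9979 to 0.9985 within TiO2 and 0.9966 to 0.9974 between them. The unexposed arrays spread more widely (0.9953 to 0.9979). Replicate 1 among them had a 3' to 5' actin difference of 0.86 log2, a sign of RNA quality, against 0.47 to 0.61 on the MWCNT arrays, 0.50 to 0.59 on the TiO2 arrays and 0.44 to 0.47 on the other unexposed arrays.

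Many genes differed between the particles, and nearly all differed by little. At an adjusted p under 0.05 (limma, Benjamini-Hochberg over all genes), 1465 of 11963 genes were called different, which is 12.2% of those tested. With MWCNT, 921 genes (7.7%) were higher and 544 (4.55%) were lower than with TiO2. The median size of a called difference was 0.26 log2. Only 33 genes (0.276%) passed both the test and a 1.5-fold difference, 6 of them higher (0.0502%) and 27 lower (0.226%) with MWCNT. No gene was called more than 2-fold higher with MWCNT, while 5 were called more than 2-fold lower: the cytochrome P450 CYP1B1, the early response gene IER3, the transcription factors ETV5 and HES1, and the efflux transporter ABCC3. For 39.5% of all genes the 3 arrays of one particle did not overlap the 3 of the other, with MWCNT above TiO2 in 25.2% and below it in 14.3%, and this held for 1437 of the 1465 called genes. An exact permutation test of 3 against 3 cultures cannot go below a two-sided p of 0.10, so the calls rest on a spread estimated over all 10 groups.

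The direction of the many small calls depended on the brightness of the gene. Genes were split by mean level into 5 classes of equal size. In class 1, the dimmest, the median MWCNT minus TiO2 difference was -0.07 log2, with 14 genes higher and 117 lower. In class 4 it was 0.08, with 338 higher and 72 lower. The median over all genes was 0.025. A further normalization that removes such trends (cyclic loess) left 311 genes higher and 500 lower, so that 38.3% of the called genes were higher with MWCNT, in place of 62.9%. Of all calls, 649 were made in both versions with the same direction, 280 higher and 369 lower. Leaving out 1 array also moved the count: 898, 827 and 607 genes were called without MWCNT replicate 1, 2 or 3, and 809, 1061 and 788 without TiO2 replicate 1, 2 or 3. Of the 157 called genes that are named here, those omissions removed the call of 34, 46 and 62 (MWCNT) and of 57, 31 and 37 (TiO2). They are given with their groups, where "lost without MWCNT 3" means that the adjusted p was above 0.05 with MWCNT replicate 3 left out. The reported value is that of 1 probe set per gene. With the mean of all probe sets of a gene, 27 of the 157 calls were lost, and after cyclic loess 33. With only the compared arrays in the fit, 33 calls were lost as well. ASNS (limma adjusted p = 0.0596) and CDC45 (0.0507) were lost in that fit alone.

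**Figure D1:**
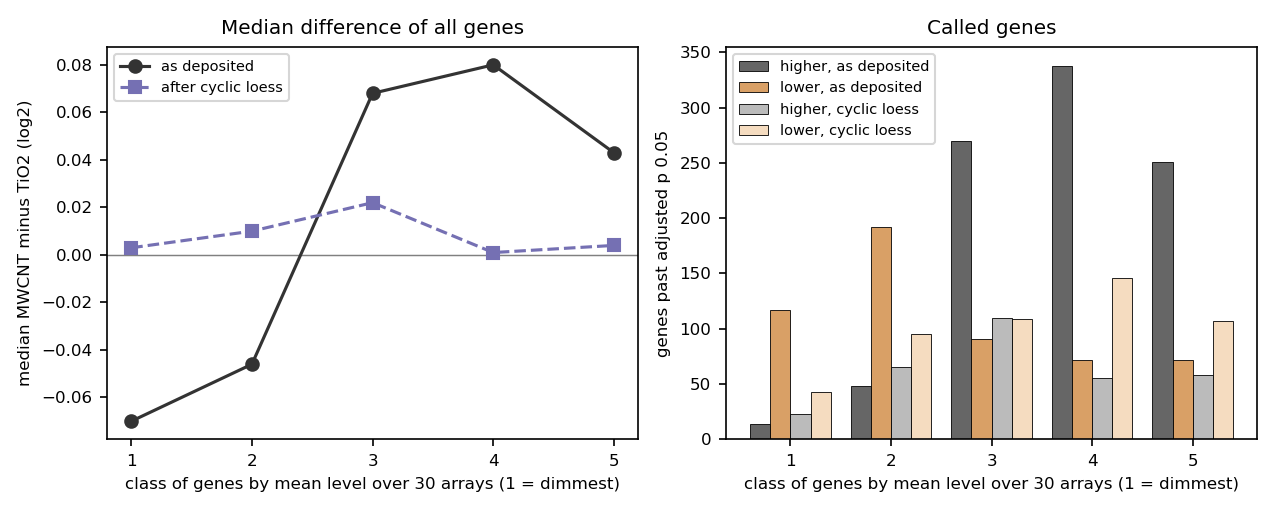
The left plot shows the median MWCNT minus TiO2 difference (log2) in 5 classes of genes by mean level, and the right plot the number of genes called higher or lower, as deposited and after cyclic loess. As deposited, the median is -0.07 in class 1 and 0.08 in class 4; after cyclic loess it stays between 0.001 and 0.022.

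The genes furthest apart were lower with MWCNT. CYP1B1, an AhR-induced monooxygenase of foreign compounds and steroids, had levels of 10.53, 9.70 and 9.73 in the MWCNT cultures, against 11.62, 11.54 and 11.52 in the TiO2 cultures. Every MWCNT culture lay below every TiO2 culture. The difference was -1.57 ± 0.24 (log2, SE), 2.98-fold, with an adjusted p of 0.000255. IER3, a stress-inducible regulator of cell survival, had 7.43, 7.36 and 7.06 with MWCNT, against 8.80, 8.61 and 8.43 with TiO2. That gap of -1.33 ± 0.08 was 2.51-fold (limma adjusted p = 1.08e-10), again with no overlap. ETV5, an ETS-family transcription factor made in response to ERK signalling, had 6.08, 6.01 and 5.98 with MWCNT, against 7.43, 7.29 and 7.27 with TiO2. Its difference of -1.31 ± 0.10 (adjusted p = 4.12e-09) was many times the spread within either group. ABCC3, a pump for organic anions and conjugates, had the smallest adjusted p of these genes (8.26e-12): its levels were 7.67, 7.84 and 7.69 with MWCNT and 8.75, 8.71 and 8.77 with TiO2. A second probe set for ABCC3 gave a smaller difference, -0.55 against -1.01. With the mean of all probe sets the ETV5 difference was -0.62.

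The list of the 15 largest lower calls took only genes with no overlap and a higher group above the table median. That leaves out HES1 and DUSP6, which are given below. Its other genes differed by -0.91 to -0.70 log2. They include ID1, a helix-loop-helix protein that blocks differentiation factors (-0.91 ± 0.16), NRP1, a co-receptor for semaphorins and vascular growth factor (-0.90 ± 0.13), and CHI3L1, a secreted chitinase-like glycoprotein (-0.87 ± 0.10). CHST15, a sulfotransferase acting on chondroitin sulfate, differed by -0.82 ± 0.12. LBH, a transcriptional cofactor, was nearly constant within groups, at 8.22, 8.21 and 8.14 with MWCNT against 9.03, 8.98 and 8.95 with TiO2 (-0.80 ± 0.08, limma adjusted p = 3.86e-07). The pseudokinase TRIB2 (-0.76 ± 0.09) and the transcriptional repressor BHLHE40 (-0.73 ± 0.08) were likewise separated. With the mean of all probe sets NRP1 differed by -0.43 and BHLHE40 by -0.46. For THBS1, a matrix glycoprotein, the MWCNT cultures lay close together (8.04, 8.15 and 8.15) and the TiO2 cultures were spread (9.19, 8.81 and 8.58), its other probe sets gave -0.48 to -0.14, and its call was lost without TiO2 replicate 1.

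The 15 largest higher calls under the same rule were smaller in size, 0.46 to 0.82 log2. The dimmer MMP28, MICOS10P1, INHBE and TMEM255A, given below, fell outside the rule, though they differed by more than most of these. ANO2, a calcium-activated chloride channel, had 7.42, 7.53 and 7.47 with MWCNT, against 6.84, 6.57 and 6.56 with TiO2, with no overlap and a difference of 0.82 ± 0.06 (1.76-fold, limma adjusted p = 1.42e-08). ARG2, the mitochondrial arginase, had 9.04, 8.96 and 8.96 with MWCNT, against 8.37, 8.47 and 8.37 with TiO2 (0.58 ± 0.08, adjusted p = 9.38e-05). NUPR1, a stress-induced chromatin protein, differed by 0.54 ± 0.07, GJA1, the gap junction protein connexin 43, by 0.52 ± 0.09, and complement component C5 by 0.56 ± 0.11. The calcium-binding troponin TNNC1 differed by 0.63 ± 0.10, the scaffold protein PCLO by 0.57 ± 0.10, the autophagy regulator RUBCNL by 0.51 ± 0.10, the lysosomal membrane protein LAMP3 by 0.51 ± 0.11 and the ubiquitin ligase RNF146 by 0.46 ± 0.08. NIBAN1 (0.58 ± 0.14), the non-coding RNA LINC00342 (0.55 ± 0.14) and the chaperone CLGN (0.47 ± 0.15) had larger errors, and PCLO differed by 0.29 with the mean of all probe sets. The calls of NIBAN1, LINC00342 and CLGN were lost when single arrays were left out: NIBAN1 without MWCNT replicate 3 or TiO2 replicate 1, LINC00342 without MWCNT replicate 2 or TiO2 replicate 1, and CLGN without any 1 of the 6. AQP3, a water and glycerol channel, differed by 0.47 ± 0.08 on the probe set used here, while its 2 other probe sets gave -0.12 to -0.02, so its direction depended on the probe set.

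**Figure D2:**
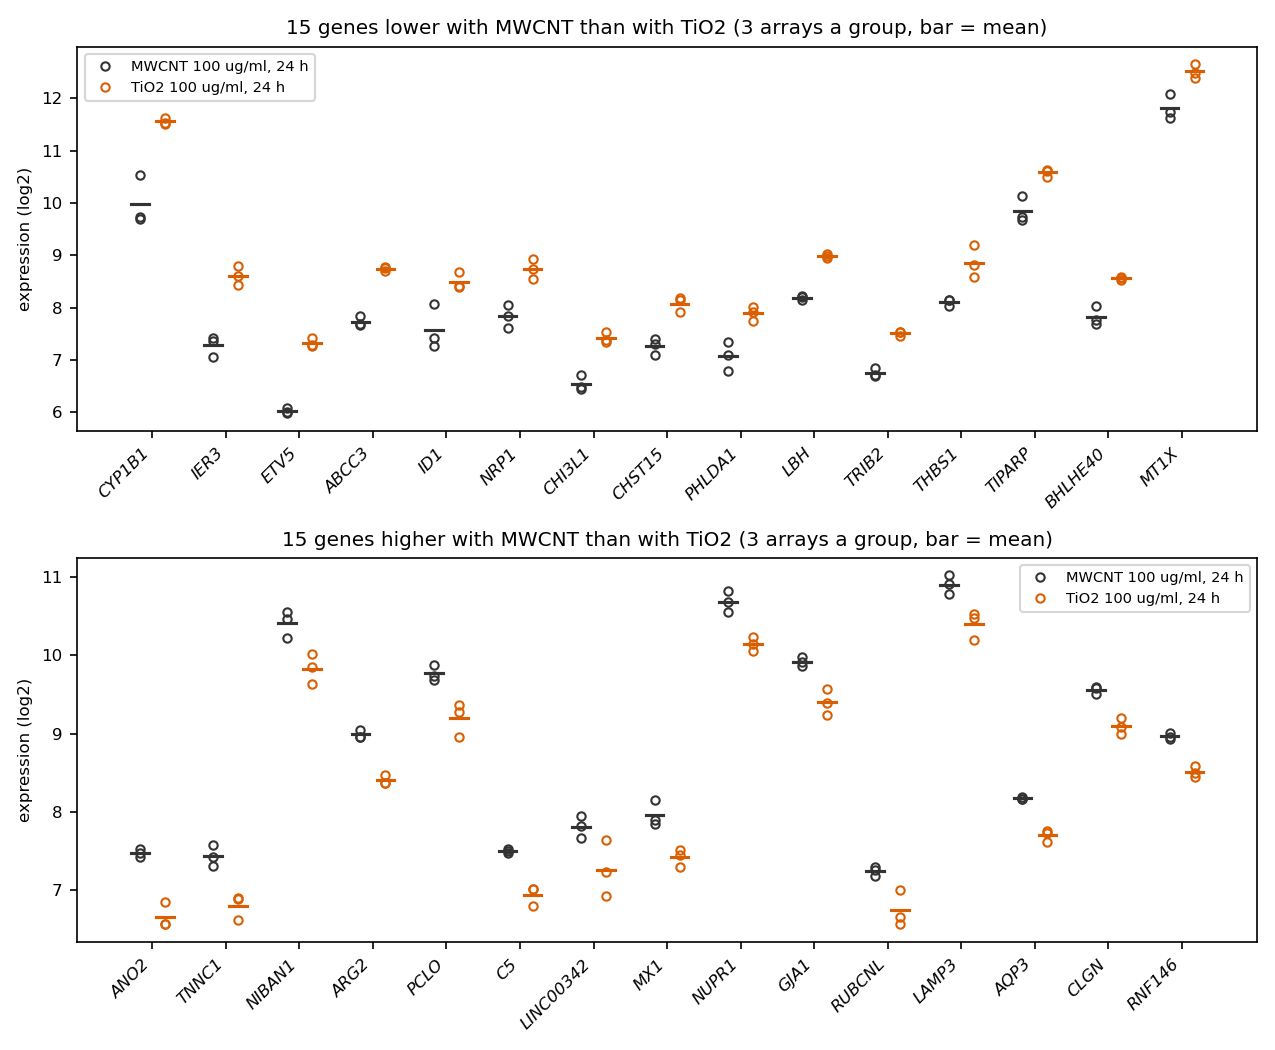
Each open circle is 1 array's log2 level, MWCNT left and TiO2 right for each gene, and each bar is the mean of 3 arrays. The upper plot holds the 15 lower genes and the lower plot the 15 higher genes, and in every pair the circles of the groups do not overlap, which the choice of genes required.

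Set beside the unexposed 24 h cultures, the MWCNT values of these 30 genes lay near the control and the TiO2 values away from it. The mean with MWCNT was nearer the control mean for 30 of 30 genes, with all 3 unexposed cultures in that mean. Over the 15 lower genes, MWCNT minus control ran over -0.45 to -0.12, and TiO2 minus control over 0.43 to 1.28. Over the 15 higher genes these ranges were -0.15 to 0.28 for MWCNT and -0.80 to -0.30 for TiO2. The genes were chosen for the gap between the particles, and all values share arrays with that comparison, so this is a description with no test. For ETV5 the differences from control were -0.12 ± 0.10 with MWCNT and 1.18 ± 0.10 with TiO2. For ANO2 they were 0.02 ± 0.06 with MWCNT and -0.80 ± 0.06 with TiO2. For CYP1B1 they were -0.30 ± 0.24 with MWCNT and 1.28 ± 0.24 with TiO2, but the unexposed cultures themselves spread over 9.30, 10.81 and 10.74, and replicate 1 was the low one. ID1 had the same pattern in the unexposed cultures (7.55, 8.32 and 8.22). For CYP1B1 the mean of the unexposed cultures other than replicate 1 lay about midway between the particle means. For MT1X, whose values are given below, that mean lay nearer TiO2 than MWCNT. The count of 30 was not repeated without replicate 1, so nearness to the control depends on that culture for such genes.

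**Figure D3:**
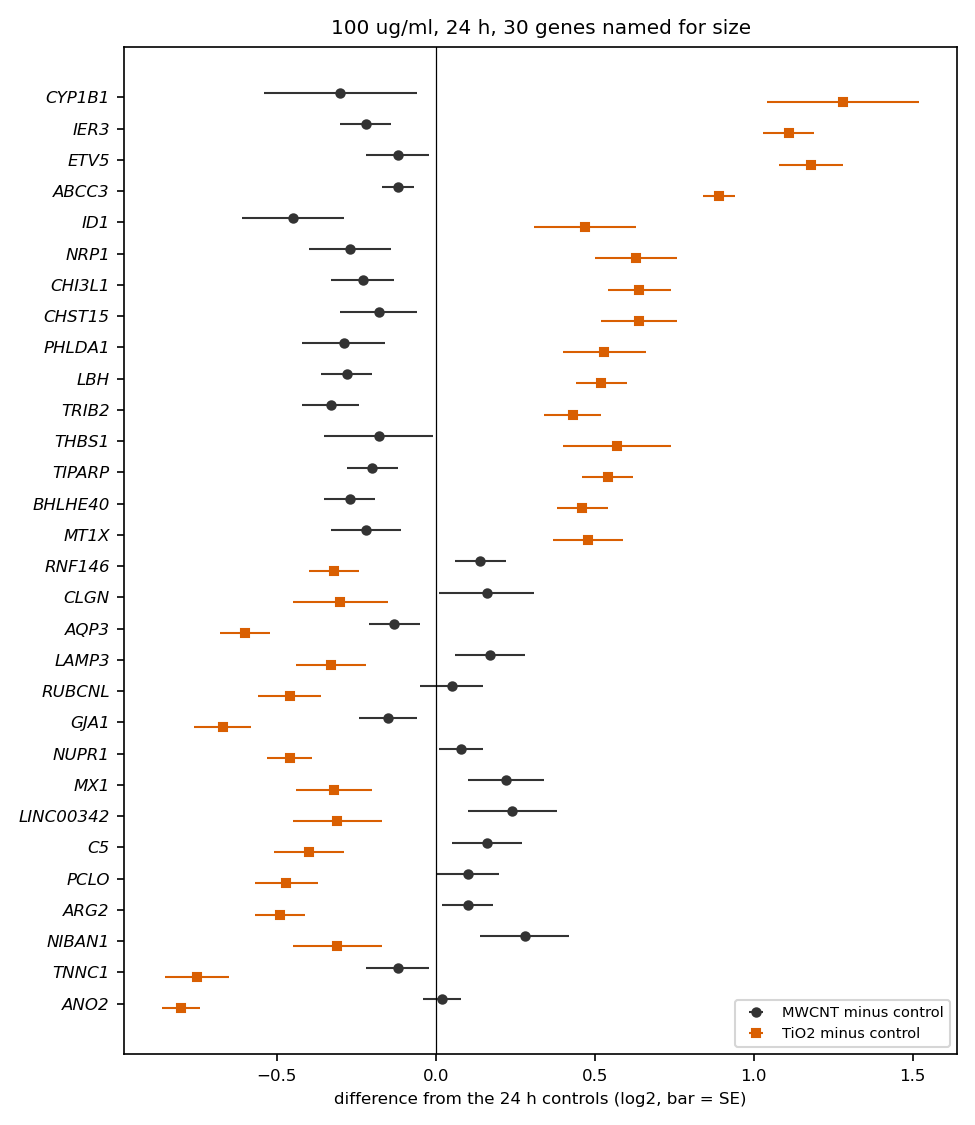
Points show the log2 difference of the MWCNT cultures (circles) and of the TiO2 cultures (squares) from the unexposed 24 h cultures for the 30 genes, with SE bars. The circles stay between -0.45 and 0.28, and the squares reach 1.28 at the top and -0.80 at the bottom.

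Of 14 measured genes on a list of ERK inhibitors and genes induced by ERK, 9 were lower with MWCNT and 0 higher, beside 4.55% of all genes lower. The median of the 14 was -0.43, against 0.025 for all genes. After ETV5, the largest difference was that of DUSP6, a phosphatase specific for ERK, with 6.17, 5.64 and 5.67 with MWCNT against 6.94, 6.74 and 6.47 with TiO2 (-0.89 ± 0.13, limma adjusted p = 0.000202). PHLDA1, an ERK-responsive gene, had 7.34, 7.09 and 6.79 with MWCNT against 8.01, 7.92 and 7.74 with TiO2. SPRED2, which keeps the kinase RAF from being activated, had 8.24, 8.26 and 8.15 with MWCNT against 8.96, 8.84 and 8.92 with TiO2. For each of these genes the groups stood clear of each other. Differences were -0.81 ± 0.13 for PHLDA1 and -0.69 ± 0.08 for SPRED2. The remaining called members were SPRY2 (-0.63 ± 0.09), DUSP4 (-0.47 ± 0.10), DUSP1 (-0.44 ± 0.06), SPRY4 (-0.43 ± 0.12) and SPRY1 (-0.39 ± 0.07), named after their values were seen. DUSP2, DUSP5, DUSP7, DUSP10 and ETV4 did not pass, with differences of -0.29 to 0.07. The SPRY4 call was lost after cyclic loess (adjusted p = 0.0589) and in 5 of 6 single-array omissions, all but that of TiO2 1. A second DUSP1 probe set gave -0.09, and the DUSP1 call was lost with the mean of all probe sets (-0.27, adjusted p = 0.0533). In that version SPRED2 differed by -0.21 and PHLDA1 by -0.44.

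Of the immediate early genes upstream and beside them, 9 of 20 were lower with MWCNT and 1 higher, beside 4.55% of all genes lower and 7.7% higher. IER3 led them. JUNB, a subunit of the AP-1 factor, had 6.60, 6.23 and 6.24 with MWCNT, against 7.03, 7.08 and 6.93 with TiO2 (-0.65 ± 0.12, limma adjusted p = 0.00143). Its partner FOS differed by -0.54 ± 0.11 and JUN by -0.39 ± 0.12. The JUN call was weak: its other probe sets gave -0.26 to 0.03, and 5 of 6 single-array omissions removed the call, all but that of MWCNT replicate 2. MAFF (-0.36 ± 0.09), the nuclear receptor NR4A1 (-0.35 ± 0.09), EGR1 (-0.27 ± 0.08), IER2 (-0.25 ± 0.06) and IER5 (-0.21 ± 0.07) were also lower, and the other NR4A1 probe sets gave -0.06 to 0.12. Several of these calls were weak: EGR1 and IER5 were lost in 6 of 6 omissions, NR4A1 without MWCNT 3 or any 1 TiO2 array, and IER2 without MWCNT 3. SRF, the factor that switches many of these genes on, was higher (0.30 ± 0.06). With the mean of all probe sets the calls of JUN, NR4A1, EGR1 and SRF were lost. The median of the list was -0.21. MAFF, NR4A1, EGR1, IER2, IER5 and SRF were named after their values were seen.

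The EGF receptor ligands did not move as one. The list counts in this paragraph stand beside 7.7% of all genes higher and 4.55% lower. EREG was lower (-0.45 ± 0.15), HBEGF higher (0.47 ± 0.15) and the receptor ERBB3 higher (0.29 ± 0.08), of 10 measured genes; each call was lost in several single-array omissions, 6 of 6 for EREG, 5 of 6 for HBEGF (all but MWCNT replicate 1) and 3 of 6 for ERBB3 (MWCNT replicates 1 and 2 and TiO2 replicate 3). Among 10 KLF factors, KLF10 (-0.52 ± 0.10), KLF9 (-0.43 ± 0.13) and KLF3 (-0.32 ± 0.08) were lower and KLF11 (0.40 ± 0.09) was higher. The KLF9 call was lost without MWCNT 2, MWCNT 3 or TiO2 1 and, like that of ERBB3, with the mean of all probe sets, where HBEGF differed by 0.25. HBEGF was also lost after cyclic loess. Of 17 measured Notch and BMP genes 3 were lower. HES1, the classical Notch-induced repressor, had 5.46, 5.56 and 5.71 with MWCNT, against 6.63, 6.59 and 6.81 with TiO2, a clear separation of -1.10 ± 0.10 (2.15-fold, limma adjusted p = 3.06e-07), with -0.62 on its other probe set and -0.52 with the mean of all. ID1 and the BMP antagonist GREM1 (-0.57 ± 0.15, adjusted p = 0.0148, and 0.0618 after cyclic loess) were the others, GREM1 being lost also without MWCNT 3 or TiO2 2. Of 10 YAP and TEAD targets, THBS1 and CCN2, a secreted matrix regulator (-0.50 ± 0.07), were lower. In the list of 18 SRF and actin genes the myosin MYH9 was lower (-0.24 ± 0.07), a call lost without MWCNT 2, MWCNT 3 or TiO2 1.

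Of 8 measured AhR genes, 4 were lower with MWCNT and 0 higher, beside 4.55% of all genes lower, with a median of -0.31. CYP1B1 came first. TIPARP, an ADP-ribosyltransferase that feeds back on the AhR, had 10.13, 9.67 and 9.73 with MWCNT, against 10.63, 10.62 and 10.50 with TiO2 (-0.74 ± 0.08, limma adjusted p = 4.96e-06). CYP1A1, a dim gene here, differed by -0.41 ± 0.10 and the quinone reductase NQO1 by -0.33 ± 0.08. ALDH3A1 (-0.26 ± 0.14), CYP1A2 (-0.29 ± 0.15) and ALDH1A3 (-0.13 ± 0.07) did not pass, and the receptor AHR itself had a mean of 8.83 in both groups; these 4 were named after their values were seen. ALDH3A1 passed in 1 alternative, with array weights (adjusted p = 0.0287). In CYP1B1 and TIPARP, MWCNT replicate 1 was the highest of its group. Both calls held without it. The NQO1 call was lost without TiO2 1.

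**Figure D4:**
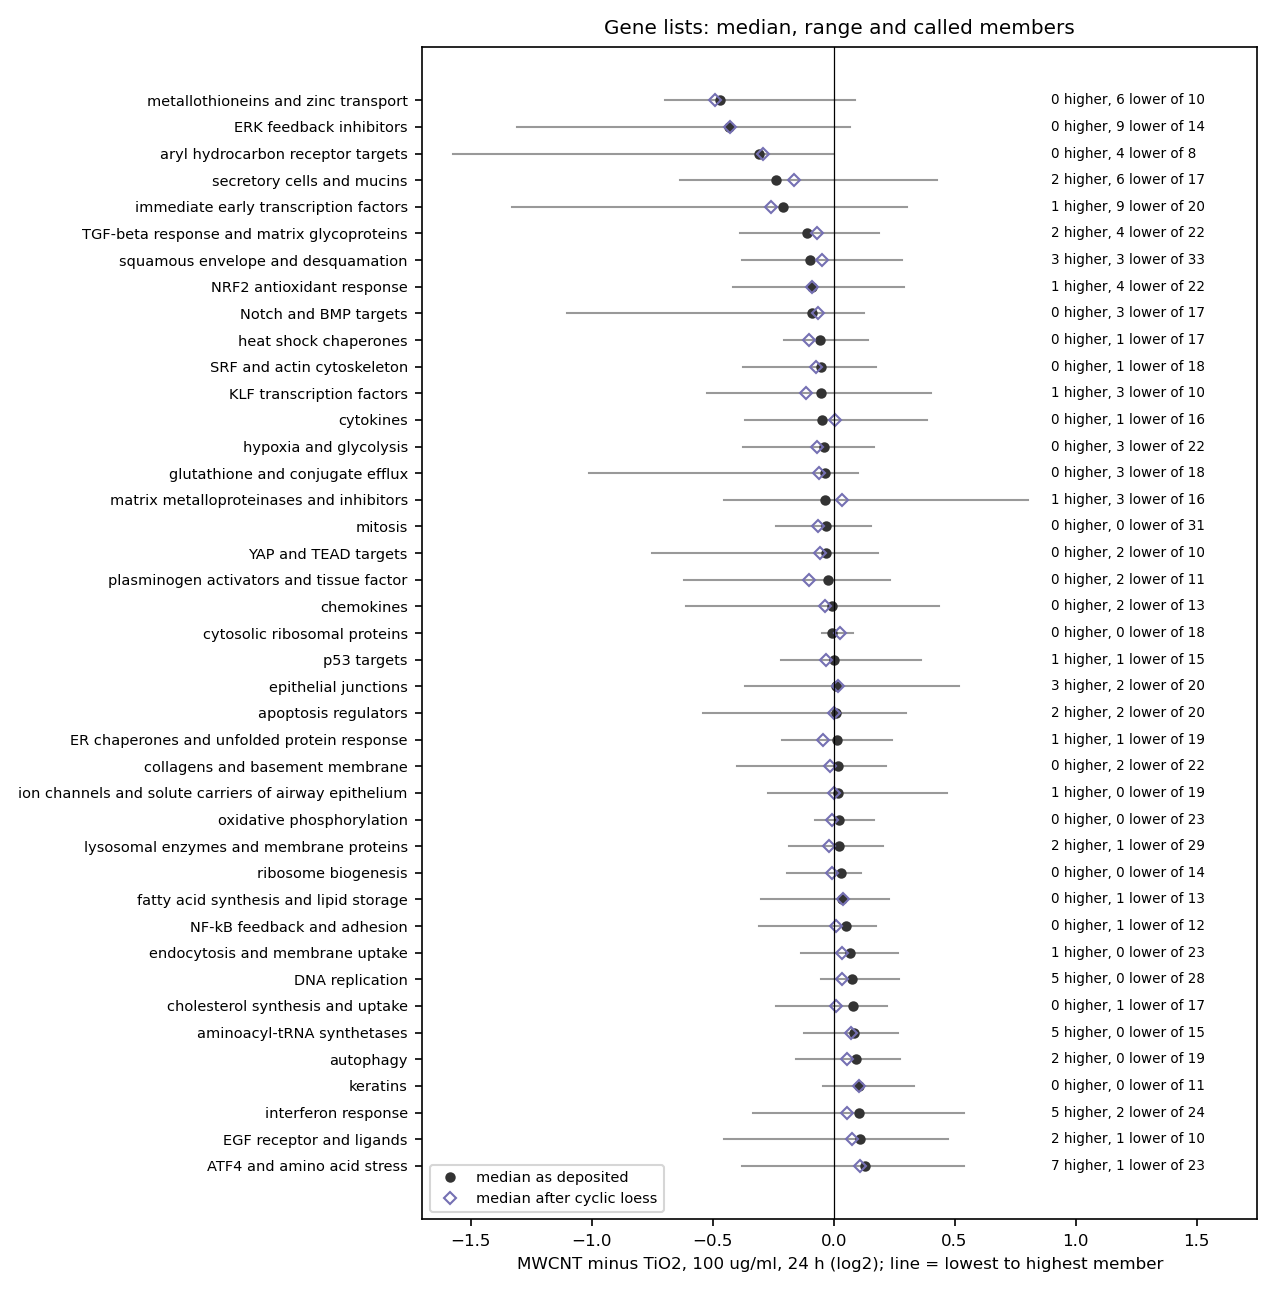
For each gene list, the filled point is the median MWCNT minus TiO2 difference (log2) of the measured members, the diamond the same after cyclic loess, and the line runs over all members; the counts at the right are members called higher or lower. The metallothionein, ERK inhibitor and AhR lists lie furthest to the low side, with medians of -0.47, -0.43 and -0.31, and the ATF4 list has a median of 0.13; the marker lists of cell types are not plotted.

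The metallothioneins, which lie together on chromosome 16, were lower with MWCNT: 6 of 10 genes of the metallothionein and zinc list, beside 4.55% of all genes, with a median of -0.47. MT1X had 12.08, 11.75 and 11.63 with MWCNT, against 12.65, 12.49 and 12.40 with TiO2 (-0.70 ± 0.11, limma adjusted p = 0.000255). MT2A had 12.40, 12.05 and 11.97 with MWCNT, against 12.82, 12.69 and 12.66 with TiO2 (-0.59 ± 0.09), and MT1H had 11.34, 10.90 and 10.86 with MWCNT against 11.73, 11.56 and 11.47 with TiO2 (-0.56 ± 0.10). The groups did not overlap, and MWCNT replicate 1 was again nearest to TiO2. MT1G (-0.52 ± 0.08), MT1F (-0.51 ± 0.12) and MT1E (-0.43 ± 0.14) were lower too, and MT1E overlapped between the groups and had an adjusted p of 0.0492. The MT1E call was lost in 5 of 6 omissions (all but MWCNT 1) and that of MT1F without MWCNT 3, and MT1G differed by -0.29 with the mean of all probe sets. Metallothionein transcripts are near-identical copies of each other, so the probe sets may share signal and these are uncertain as separate genes. MT1M (-0.20 ± 0.17), the zinc exporter SLC30A1 (-0.08 ± 0.06), MT3 (-0.06) and the metal sensor MTF1 (0.09) did not pass. Apart from MT1X, MT2A, MT1H and MT1G, the members of this list were named after their values were seen. The unexposed cultures varied as well: MT1X had 11.69, 12.27 and 12.16 there and MT2A had 12.07, 12.51 and 12.41, with replicate 1 the lowest.

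Because these genes differed together, their promoters are shown, from RefSeq (GRCh38.p14), 250 bases before to 50 after the first listed start. Capitals mark the core of the metal response element, TGCGCNC or TGCACNC, on either strand; a match is only a match of letters. MT2A lies at chr16:56608334-56608633, MT1X at chr16:56682220-56682519 and MT1H at chr16:56669564-56669863, all on the plus strand.
MT2A: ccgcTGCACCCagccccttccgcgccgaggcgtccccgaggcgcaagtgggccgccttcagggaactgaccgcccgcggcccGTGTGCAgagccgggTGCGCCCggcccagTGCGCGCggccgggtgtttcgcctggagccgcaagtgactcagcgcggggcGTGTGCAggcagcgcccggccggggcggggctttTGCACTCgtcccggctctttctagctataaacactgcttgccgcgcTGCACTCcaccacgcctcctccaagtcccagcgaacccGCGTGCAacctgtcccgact
MT1X: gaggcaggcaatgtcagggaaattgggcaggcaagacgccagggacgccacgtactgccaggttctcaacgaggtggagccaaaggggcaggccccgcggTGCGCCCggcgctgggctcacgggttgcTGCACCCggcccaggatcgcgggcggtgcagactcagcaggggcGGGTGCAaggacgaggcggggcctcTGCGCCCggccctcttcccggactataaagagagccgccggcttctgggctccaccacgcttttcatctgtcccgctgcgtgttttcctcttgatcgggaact
MT1H: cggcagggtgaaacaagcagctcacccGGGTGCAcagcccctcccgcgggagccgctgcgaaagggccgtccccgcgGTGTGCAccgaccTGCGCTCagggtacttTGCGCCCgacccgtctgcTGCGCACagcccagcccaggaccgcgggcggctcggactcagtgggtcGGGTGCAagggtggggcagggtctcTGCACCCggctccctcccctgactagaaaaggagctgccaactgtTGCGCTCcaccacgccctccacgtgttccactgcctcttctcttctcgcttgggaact
The core occurred 8 times in MT2A, 4 times in MT1X and 8 times in MT1H. At least 1 match was present in 36.5% of 9563 promoters of tested genes, and 4 or more in 0.795%. SLC30A1, which did not differ by the test, held 2.

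ATF4 targets of amino acid stress leaned the other way. Of 23 measured genes 7 were higher with MWCNT (7.7% of all genes were) and 1 lower, with a median of 0.13. All 23 lay above the table median, as did the 15 tRNA synthetases below. Higher calls were commoner among bright genes as a whole, with 338 of 2392 genes in class 4 and 251 of 2393 in class 5. NUPR1 had 10.55, 10.68 and 10.82 with MWCNT, against 10.05, 10.23 and 10.15 with TiO2, with no overlap (limma adjusted p = 6.4e-05). DDIT3, the stress factor CHOP, differed by 0.29 ± 0.07, the hormone STC2 by 0.27 ± 0.06, CEBPG by 0.27 ± 0.05, the mitochondrial carboxykinase PCK2 by 0.25 ± 0.06, asparagine synthetase ASNS by 0.15 ± 0.03 and the arginine carrier SLC7A1 by 0.15 ± 0.05. ATF4 itself had a mean of 13.03 with MWCNT and 12.95 with TiO2 and did not pass. DDIT4, an mTOR inhibitor, was lower (-0.38 ± 0.10). After cyclic loess 5 of the 7 passed; PCK2 (adjusted p = 0.0508) and SLC7A1 (0.0776) did not. A second STC2 probe set gave 0.02, and with the mean of all probe sets STC2 and SLC7A1 were lost. Omissions removed DDIT3 (without TiO2 1), DDIT4 (MWCNT 3 or TiO2 1), PCK2 (MWCNT 2 or 3) and SLC7A1 (MWCNT 2 or 3, or TiO2 2 or 3). The tRNA synthetases, which charge tRNAs with amino acids and include ATF4 targets, had 5 of 15 higher: WARS1 (0.27 ± 0.05), SARS1 (0.20 ± 0.04), IARS1 (0.20 ± 0.06), AARS1 (0.20 ± 0.06) and TARS1 (0.19 ± 0.05). Of these, AARS1 (0.102) and TARS1 (0.0815) had adjusted p-values above 0.05 after cyclic loess. AARS1 was also lost in all omissions but that of MWCNT 2, TARS1 in all but that of TiO2 2, and IARS1 without MWCNT 3 or TiO2 1. The names ATF4, CEBPG, PCK2, ASNS, SLC7A1 and TARS1 were added after their values were seen.

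Of 24 interferon response genes, 5 were higher with MWCNT and 2 lower, beside 7.7% of all genes higher and 4.55% lower. MX1, an antiviral GTPase, had 7.84, 7.89 and 8.15 with MWCNT, against 7.45, 7.51 and 7.30 with TiO2 (0.54 ± 0.12, limma adjusted p = 0.00612). ISG15, a ubiquitin-like protein, had 9.84, 9.98 and 10.08 with MWCNT, against 9.50, 9.52 and 9.51 with TiO2 (0.45 ± 0.08, adjusted p = 0.00172). Neither gene overlapped between the groups. The interferon regulatory factors IRF7 (0.35 ± 0.08) and IRF9 (0.28 ± 0.06) and the ISG15 protease USP18 (0.33 ± 0.10) were higher, and OAS1 (-0.33 ± 0.09) and IFITM1 (-0.20 ± 0.05) lower. IRF9 (0.0505) and USP18 (0.0654) missed the threshold after cyclic loess, as did OAS1 (0.0732). Calls were lost for IRF9 without MWCNT 3, USP18 without MWCNT 1, MWCNT 3, TiO2 1 or TiO2 3, OAS1 without MWCNT 2 or TiO2 2 and with the mean of all probe sets, and IFITM1 without MWCNT 3 or TiO2 3. IRF9, USP18 and IFITM1 were named after their values were seen. The ISG15 promoter (RefSeq, GRCh38.p14, chr1:1013247-1013546, plus strand, same window) is shown as an example among the called members, with the interferon-stimulated response element (GAAA, any 2 bases, GAAA, on either strand) in capitals.
ISG15: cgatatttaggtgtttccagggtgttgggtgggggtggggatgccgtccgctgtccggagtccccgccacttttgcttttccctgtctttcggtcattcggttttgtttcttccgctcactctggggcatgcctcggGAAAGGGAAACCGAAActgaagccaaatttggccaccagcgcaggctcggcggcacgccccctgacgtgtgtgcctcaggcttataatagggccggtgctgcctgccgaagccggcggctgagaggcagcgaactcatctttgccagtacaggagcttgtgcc
Its 2 matches overlap. The motif was found in 2.97% of the 9563 promoters, and in 12 of the 17 interferon genes with a promoter. Of the other called members with a promoter, MX1 held 1 match and IFITM1 held 2, and IRF9 and OAS1 held 0.

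The NRF2 list of antioxidant genes was split. Of 22 measured genes, 4 were lower with MWCNT and 1 higher, beside 4.55% of all genes lower and 7.7% higher. The lower ones were the factor NFE2L2 (NRF2) itself (-0.41 ± 0.07), the pump ABCC2 (-0.35 ± 0.11), NQO1 and the peroxiredoxin PRDX1 (-0.20 ± 0.05). PRDX1 was named after its value was seen. The cystine carrier SLC7A11, also an ATF4 target, was higher (0.29 ± 0.06). HMOX1 (8.49 with MWCNT and 8.46 with TiO2) and GCLM (9.99 with MWCNT and 9.96 with TiO2), classical NRF2 targets named after their values were seen, did not pass. The list on glutathione and conjugate efflux had 3 of 18 lower, beside the same 4.55% of all genes: ABCC3, ABCC2 and GSTO1 (-0.15 ± 0.04). ABCC2 had an adjusted p of 0.0495, and 0.147 after cyclic loess, and was lost in 6 of 6 omissions. PRDX1 was lost without MWCNT 3 or TiO2 1, and GSTO1 without MWCNT 2, MWCNT 3, TiO2 1 or TiO2 2.

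Mucins and other secretory genes were mostly dim, with 15 of 17 at or below the table median. Of the 17, 6 were lower with MWCNT and 2 higher, beside 4.55% of all genes lower and 7.7% higher. MUC5AC, the gel-forming mucin of goblet cells, differed by -0.63 ± 0.13 (limma adjusted p = 0.00306), BPIFA1 by -0.48 ± 0.12 and MUC5B by -0.39 ± 0.09. PIGR (-0.35 ± 0.10), AQP5 (-0.33 ± 0.09) and CYP2F1 (-0.29 ± 0.09) were lower and the membrane mucins MUC13 (0.43 ± 0.13) and MUC1 (0.32 ± 0.05) higher. With the mean of all probe sets MUC5AC differed by -0.15 and did not pass (adjusted p = 0.075). MUC13 was lost in 6 of 6 omissions, BPIFA1 without TiO2 3, PIGR without any 1 MWCNT array or TiO2 3, AQP5 without MWCNT 3 or TiO2 3, and CYP2F1 without MWCNT 2, MWCNT 3, TiO2 2 or TiO2 3. The mean level over this list ranged over 5.38 to 5.43 with MWCNT, 5.55 to 5.63 with TiO2 and 5.43 to 5.45 in the unexposed cultures. Lower calls were also commoner among dim genes as a whole (class 1 above). After cyclic loess, which levels that trend, 5 lower and 2 higher calls were made in this list. Among the squamous and desquamation genes, 28 of 33 were dim. Of the 33, 3 were lower and 3 higher, beside 4.55% and 7.7% of all genes. SERPINB3 (-0.38 ± 0.09), TGM2 (-0.38 ± 0.08) and S100A9 (-0.35 ± 0.12) were lower. LCN2 (0.28 ± 0.08), PPL (0.28 ± 0.06) and CSTA (0.26 ± 0.07) were higher. Among 20 junction genes, GJA1, CDH1 (0.25 ± 0.08) and CLDN7 (0.24 ± 0.05) were higher, and JUP (-0.37 ± 0.09) and the catenin CTNNB1 (-0.25 ± 0.07) lower. Those 3 higher and 2 lower calls likewise stand beside 7.7% and 4.55% of all genes. S100A9 was lost in all omissions but that of MWCNT 3, CSTA in all but those of MWCNT 1 and TiO2 2, and CDH1 in all but that of TiO2 2. LCN2 was lost without MWCNT 2, MWCNT 3 or TiO2 3, JUP without MWCNT 2 or 3, and CTNNB1 without MWCNT 2, MWCNT 3 or TiO2 1. After cyclic loess the calls of S100A9, CSTA and CDH1 were lost, and TGM2 differed by -0.20 with the mean of all probe sets, where CDH1 was lost too. PIGR, AQP5, CYP2F1, MUC1, PPL, CSTA and CLDN7 were named after their values were seen. Among the markers of other cells, the immune genes CD3E (-0.47 ± 0.12), CD14 (-0.43 ± 0.12) and MS4A1 (-0.39 ± 0.12) were lower, 3 of 9, beside 4.55% of all genes. PTPRC did not pass, and the part of other cells in the results was not tested. Further calls, beside the same shares, were COL1A1 of 10 fibroblast markers, SPAG6 (-0.34 ± 0.11) of 6 ciliated markers and LAMP3 (higher) of 9 alveolar markers. CDH1 was called of 11 small airway epithelial markers, and CDH1 and MMP2 of 17 epithelial-mesenchymal transition markers. Among these marker calls, MS4A1 and SPAG6 were lost in all omissions but that of TiO2 3 and after cyclic loess. CD3E was lost in all but those of MWCNT 2 and TiO2 2, and CD14 without MWCNT 2, MWCNT 3 or TiO2 1.

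Matrix and protease genes gave a few calls, mostly lower with MWCNT. TGFBI, a matrix protein induced by TGF-beta, differed by -0.39 ± 0.05 (limma adjusted p = 2.71e-05), LOX, a collagen cross-linker, by -0.30 ± 0.07, TGIF1 by -0.28 ± 0.07 and the receptor TGFBR2 by -0.23 ± 0.05. FBN1 (0.19 ± 0.05) and FSTL1 (0.18 ± 0.04), named after their values were seen, were higher, so that 4 of 22 genes of the TGF-beta list were lower and 2 higher, beside 4.55% of all genes lower and 7.7% higher. Both higher calls were lost after cyclic loess (adjusted p = 0.0997 and 0.0618). COL1A1 (-0.40 ± 0.10) and LAMB1 (-0.30 ± 0.08) were lower of 22 collagen and basement membrane genes. The protease MMP28 had 6.02, 6.10 and 6.02 with MWCNT, against 5.29, 5.49 and 4.95 with TiO2, with no overlap (0.80 ± 0.09, adjusted p = 9.34e-06), while MMP2 (-0.45 ± 0.09) and the inhibitors TIMP3 (-0.34 ± 0.10) and TIMP1 (-0.27 ± 0.07) were lower, of 16. Of 11 genes on plasminogen activation and tissue factor, the coagulation inhibitors TFPI (-0.62 ± 0.08) and TFPI2 (-0.46 ± 0.13) were lower. With the mean of all probe sets TGFBR2, COL1A1, TIMP3 and TFPI2 did not pass, and LAMB1 differed by -0.18. Omissions removed TGIF1 and TGFBR2 (without TiO2 1), FBN1 (MWCNT 3 or TiO2 1), COL1A1 (TiO2 3), LAMB1 (MWCNT 2 or 3, or TiO2 1 or 2), TIMP1 (MWCNT 1 or TiO2 1), TIMP3 (any 1 MWCNT array or TiO2 3) and TFPI2 (MWCNT 1 or 3, or TiO2 1 or 2).

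Inflammatory genes were mostly dim or did not pass. Counts here stand beside 4.55% of all genes lower and 7.7% higher. The monocyte attractant CCL2 (-0.61 ± 0.10) and CX3CL1 (-0.30 ± 0.08) were lower, of 13 chemokines, of which 12 lay at or below the table median. CSF1 (-0.30 ± 0.06) was lower of 16 cytokines and TNFAIP2 (-0.31 ± 0.08) of 12 genes on NF-kB feedback and adhesion. Of 20 apoptosis regulators, BIK was lower (-0.54 ± 0.08), with MCL1 (-0.16 ± 0.05), and CASP9 (0.30 ± 0.06) and BAD (0.22 ± 0.07) were higher. The other MCL1 probe sets gave -0.31 to 0.07. Of 15 p53 targets, the stress hormone GDF15 was higher (0.36 ± 0.08) and FAS lower (-0.22 ± 0.06). GDF15 differed by 0.12 and did not pass with the mean of all probe sets (adjusted p = 0.293), nor did MCL1 or TNFAIP2. FAS and MCL1 were lost in 5 of 6 omissions (all but TiO2 3) and BAD in 5 of 6 (all but MWCNT 1), and BAD also after cyclic loess. CX3CL1 was lost without MWCNT 1, MWCNT 2, TiO2 1 or TiO2 3, and TNFAIP2 without MWCNT 1 or TiO2 1.

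Most growth, energy and housekeeping lists held few or no calls, to be read beside 7.7% of all genes higher and 4.55% lower. The DNA replication list held the most, and all its 28 measured members lay above the table median, where higher calls were commoner. Of 28 DNA replication genes 5 were higher with MWCNT, CDC45 (0.27 ± 0.06), E2F1 (0.25 ± 0.08), LIG1 (0.20 ± 0.06), PRIM1 (0.18 ± 0.04) and RFC2 (0.17 ± 0.06, named after its value was seen), but only CDC45 passed after cyclic loess (adjusted p = 0.0306). E2F1 and LIG1 were lost in all omissions but that of TiO2 3, RFC2 in all but that of TiO2 2, and PRIM1 without MWCNT 1 or TiO2 1. E2F1 and RFC2 were lost with the mean of all probe sets. No member was called by limma among 31 mitosis genes, 23 genes of oxidative phosphorylation, 18 cytosolic ribosomal proteins, 14 genes of ribosome biogenesis, 11 keratins, 12 basal cell markers and 8 endothelial markers. At an unadjusted p under 0.05 these lists held 3, 4, 0, 2, 3, 1 and 1 genes in that order. Their largest members were MAD2L1 (-0.24 ± 0.11), UQCRC1 (0.17 ± 0.08), RPL35 (0.08 ± 0.04), POLR1B (-0.19 ± 0.09), KRT8 (0.33 ± 0.12), NGFR (0.29 ± 0.10) and TEK (-0.32 ± 0.13). After cyclic loess 1 gene of oxidative phosphorylation was called, lower. Some alternatives called single members. KRT8 passed in 3 of 14, without the dim genes, without unexposed 24 h replicate 1 and with array weights (lowest adjusted p 0.00248). TEK passed in 2, with only the compared arrays in the fit and with the mean of all probe sets, MAD2L1 and UQCRC1 in 1, with array weights, and NGFR in 1, without MWCNT 2. Single small calls were made among 17 cholesterol genes (MVK, -0.23 ± 0.06, whose other probe sets gave 0.00 to 0.19), 13 lipid genes (ACSL1, -0.30 ± 0.08), 17 heat shock chaperones (HSPE1, -0.19 ± 0.05), 23 endocytosis genes (EHD4, 0.22 ± 0.05) and 19 ion channel and carrier genes (AQP3). Of 19 endoplasmic reticulum chaperones SEL1L (0.24 ± 0.06) was higher and SEC61B (-0.13 ± 0.04) lower. Of 22 hypoxia and glycolysis genes SLC2A3 (-0.37 ± 0.10), PFKP (-0.30 ± 0.07) and HK2 (-0.26 ± 0.07) were lower. Of 29 lysosomal genes ATP6V1H (0.20 ± 0.05) and NPC1 (0.17 ± 0.05) were higher and GLA (-0.14 ± 0.05) lower, close to the shares of all genes. Of 19 autophagy genes UVRAG (0.28 ± 0.08) and ATG5 (0.15 ± 0.05) were higher. After cyclic loess none of the 4 higher calls remained: adjusted p-values were 0.0996 for ATP6V1H, 0.0884 for NPC1, 0.101 for UVRAG and 0.273 for ATG5. SEL1L, EHD4 and SLC2A3 were lost there too. ATG5 and SEC61B were lost in 6 of 6 omissions and GLA in 5 of 6 (all but TiO2 3). UVRAG, HK2 and HSPE1 were lost without MWCNT 2, MWCNT 3 or TiO2 1, ATP6V1H and ACSL1 without MWCNT 3 or TiO2 1, NPC1 without MWCNT 1, MWCNT 3 or TiO2 3, MVK without MWCNT 3, TiO2 1 or TiO2 3, SLC2A3 without MWCNT 2 or TiO2 3, and SEL1L without MWCNT 3. With the mean of all probe sets SLC2A3 differed by -0.01 (adjusted p = 0.927), MVK by -0.01 and ACSL1 by -0.17, and NPC1 and ATG5 did not pass. The GLA difference was -0.22 after cyclic loess.

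The rest of the 33 genes past 1.5-fold, named after their values were seen, were VGLL4, a TEAD cofactor (-0.63 ± 0.05), FLI1, an ETS factor (-0.63 ± 0.12), TM4SF1, a tetraspanin-like surface protein (-0.60 ± 0.12), TMEM255A (0.59 ± 0.15) and MICOS10P1, a pseudogene (0.65 ± 0.19). VGLL4 had one of the smaller adjusted p-values (limma, 2.27e-08), and its second probe set gave -0.33. MICOS10P1 was lost in 5 of 6 omissions (all but TiO2 3) and TMEM255A without TiO2 3.

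Whether the particle difference itself changed with dose was tested as an interaction. At 24 h, 34 genes (0.284% of those tested) had a MWCNT minus TiO2 difference at 100 ug/ml unlike that at 10 ug/ml, 32 more negative (0.267%) and 2 more positive (0.0167%) at the high dose. At an unadjusted p under 0.05 there were 699. For ETV5 the difference was -0.04 ± 0.10 at 10 ug/ml and -1.31 ± 0.10 at 100 ug/ml (interaction -1.26 ± 0.14, limma adjusted p = 9.03e-06). For IER3 it was 0.02 ± 0.08 at 10 ug/ml and -1.33 ± 0.08 at 100 ug/ml. DUSP6 had 0.37 ± 0.13 at 10 ug/ml and -0.89 ± 0.13 at 100 ug/ml, estimates of opposite sign. The interaction test bears on the gap between these estimates and not on the sign at 10 ug/ml. For CYP1B1 the interaction was -1.08 ± 0.34 and did not pass (adjusted p = 0.379).

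Between 1 h and 24 h at 100 ug/ml, 222 genes (1.86%) had an unlike particle difference, 98 more positive (0.819%) and 124 more negative (1.04%) at 24 h, and 2208 had an unadjusted p under 0.05. ABCC3 differed by 0.03 ± 0.05 at 1 h and -1.01 ± 0.05 at 24 h (interaction -1.04 ± 0.08, limma adjusted p = 8.63e-09). INHBE, a subunit of activin E, differed by -0.36 ± 0.11 at 1 h and 0.60 ± 0.11 at 24 h. CYP1B1 and TIPARP were apart at 1 h as well. At 1 h CYP1B1 had 10.92, 11.03 and 11.15 with MWCNT, against 12.68, 12.59 and 12.73 with TiO2 (-1.63 ± 0.24), and its interaction of 0.06 ± 0.34 had a 95% interval of -0.64 to 0.76. TIPARP had 11.70, 11.71 and 11.74 with MWCNT, against 12.88, 12.84 and 12.94 with TiO2 at 1 h (-1.17 ± 0.08), and the interaction of 0.42 ± 0.12 did not pass (adjusted p = 0.0551).

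**Figure D5:**
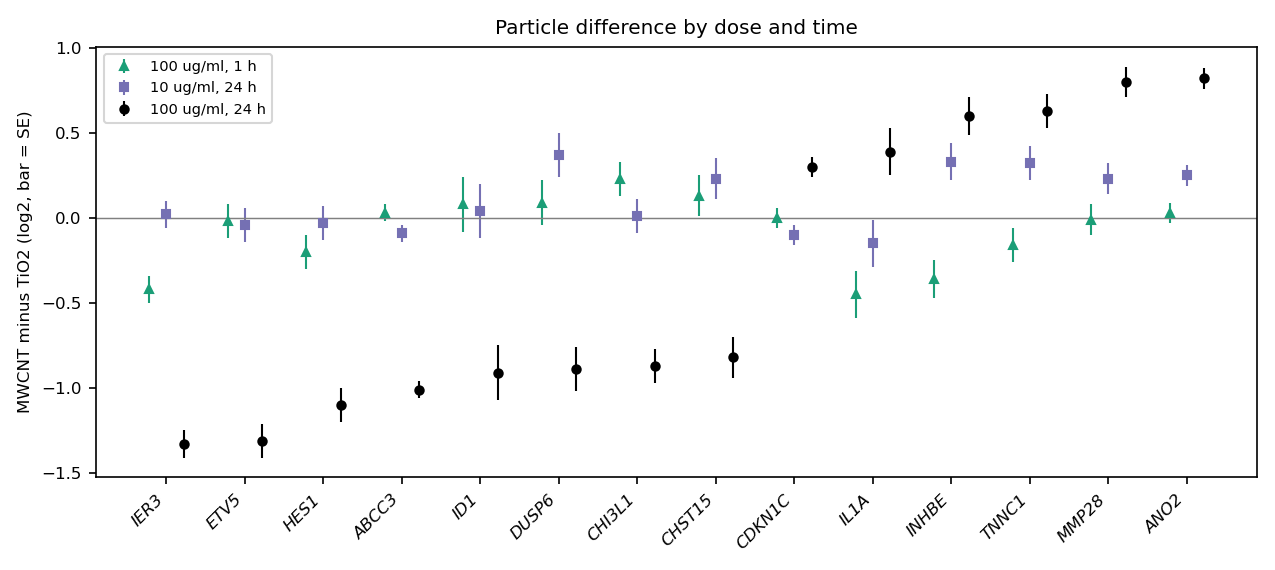
Points are the MWCNT minus TiO2 difference (log2, SE bars) at 100 ug/ml and 1 h (triangles), 10 ug/ml and 24 h (squares) and 100 ug/ml and 24 h (circles), for the genes named in the dose and time tests. ETV5 lies at -0.02, -0.04 and -1.31 in that order, and ANO2 at 0.03, 0.25 and 0.82.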

How the data were processed

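RNA of 30 cultures was hybridised to Affymetrix arrays, and the authors deposited log2 expression values, made with RMA per the submitters' processing notes (version not given in the sources used here). RMA forces all arrays to one distribution, so differences are relative to the whole array. From 22277 probe sets, 62 controls were dropped; 19064 had 1 platform symbol, 1043 several and 2108 none. For each of 11963 genes the probe set with the highest mean over all arrays was used. No depth or detection call came with the table; the number of arrays, 3 a group, limits the precision.

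limma 3.58.1 (R 4.3.3) fitted 1 mean per group to all 30 arrays with moderated two-sided tests, Benjamini-Hochberg adjustment over all genes and a threshold of 0.05; errors are SE from this fit. It was tested on simulated data. Named were the 15 largest calls in each direction (no overlap, higher group above the table median), up to 4 calls per list (or the largest member where none passed) and up to 5 per direction of each interaction; Y-linked genes and XIST were left out. The comparison and the 49 gene lists were chosen with earlier results of these data known. Alternatives were the compared groups alone, a filter on dim genes, cyclic loess, array weights, the replicate number as a block, the mean of all probe sets, trend and robust variances and omission of single arrays. Files carried no scan date or batch.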

Additional observations from a re-analysis of the deposited data

Results flagged for a closer look

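These results were set apart because the particle difference, MWCNT minus TiO2 at 100 ug/ml and 24 h, differed by an interaction test from that at another dose or time. All values are log2 interaction estimates ± SE from limma, with adjusted p-values over all genes, and each rests on 4 groups of 3 cultures.

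Against 10 ug/ml at 24 h, 34 genes passed. The estimates were -1.35 ± 0.12 for IER3 (adjusted p = 1.25e-07), -1.27 ± 0.19 for DUSP6 (0.000706), -1.26 ± 0.14 for ETV5 (9.03e-06), -1.07 ± 0.15 for HES1 (0.000241) and -1.04 ± 0.18 for CHST15 (0.0031). On the other side stood ANO2 with 0.57 ± 0.09 (0.00207) and CDKN1C, an inhibitor of the cell cycle, with 0.41 ± 0.08 (0.0136). For CDKN1C the particle difference was -0.10 ± 0.06 at 10 ug/ml and 0.30 ± 0.06 at 100 ug/ml. IER3, DUSP6 and ETV5 passed under every alternative run. HES1 was lost with the mean of all probe sets (highest adjusted p 0.0763), CHST15 and ANO2 when the other 6 groups were left out of the fit (0.0576 each), and CDKN1C under 5 alternatives, among them the fits without MWCNT 100 ug/ml replicate 2, MWCNT 10 ug/ml replicate 1 or TiO2 10 ug/ml replicate 3.

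Against 1 h at 100 ug/ml, 222 genes passed. The estimates were -1.29 ± 0.14 for ETV5 (adjusted p = 9.77e-06), -1.09 ± 0.14 for CHI3L1 (9.19e-05), -1.04 ± 0.08 for ABCC3 (8.63e-09), -1.0 ± 0.22 for ID1 (0.0232) and -0.98 ± 0.19 for DUSP6 (0.00752). They were 0.96 ± 0.16 for INHBE (0.00206), 0.84 ± 0.20 for the cytokine IL1A (0.0336), 0.81 ± 0.13 for MMP28 (0.0019), 0.79 ± 0.14 for TNNC1 (0.00242) and 0.78 ± 0.09 for ANO2 (4.05e-05). IL1A differed by -0.45 ± 0.14 at 1 h and 0.39 ± 0.14 at 24 h, and at 24 h alone it did not pass (adjusted p = 0.0743). IL1A was lost under 8 alternatives and ID1 under 5; the other 8 passed under every alternative run. IL1A failed without any 1 of MWCNT 1 h replicates 1 and 3, MWCNT 24 h replicate 2, TiO2 1 h replicate 3 and TiO2 24 h replicates 1 and 3 (highest adjusted p 0.103), and ID1 without MWCNT 1 h replicate 1, MWCNT 24 h replicates 2 and 3 or TiO2 24 h replicate 1 (0.0729).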

How the results depend on the processing

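Of the 30 genes named for size, 25 were called under every alternative run, the exceptions being NIBAN1, LINC00342, AQP3, CLGN and THBS1. Under these alternatives none of the 169 genes named for the 24 h comparison at 100 ug/ml changed direction. Other probe sets taken alone were not among the alternatives. Of 294 called genes with another probe set above the table median, the median of the others had the same sign in 275 and the opposite sign in 19. Of the 169 named genes 157 were called, and 68 of these passed every alternative. Counts moved more. For the main comparison (1465 genes, 921 higher, 544 lower), cyclic loess gave 811 (311 and 500) and array weights 3095 (1956 and 1139); the filter on dim genes gave 1464, with 1178 higher and 286 lower, testing fewer genes. Single-array omissions gave 607 to 1662 calls, 352 to 1079 higher and 255 to 583 lower; the highest of these came without unexposed 24 h replicate 1, an alternative chosen after seeing the data. For the dose interaction (34, 2 and 32), only the compared groups gave 17 (0 and 17), array weights 115 (30 and 85), the filter 4 higher and the mean of probe sets 1 higher; omissions gave 21 to 46 (1 to 4 higher, 20 to 44 lower), the lowest without TiO2 10 ug/ml replicate 3. For the time interaction (222, 98 and 124), only the compared groups gave 89 (24 and 65), array weights 537 (291 and 246), cyclic loess 48 higher and the filter 201 higher; omissions gave 85 to 354 (29 to 174 higher, 47 to 180 lower), the lowest without TiO2 24 h replicate 3 and the highest without TiO2 1 h replicate 1. The cause was not tested. The labels do not say whether arrays of one replicate number belong together. Between MWCNT and TiO2 at 100 ug/ml and 24 h, correlations of same-numbered deviations were 0.073, -0.066 and 0.012. Those groups alone cannot show whether the numbers pair arrays across the series. With the replicate block 1442, 32 and 177 genes were called. With 3 arrays a group and no detection calls, dim genes carry the least information.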
